A study of Homo sapiens with 6 samples.

Results

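The 10 genes described here encode amino acid transporters of the plasma membrane: SLC7A11, SLC7A5, SLC3A2, SLC1A5, SLC1A4, SLC38A1, SLC38A2, SLC6A9, SLC7A1 and SLC43A1. Their members on the array were all probes to which the platform annotation gives 1 of these symbols, 14 probes among 48701, and the 10 genes were among 18833 named genes. RNA was measured in A549, an established human lung adenocarcinoma line, grown in DMEM with fetal calf serum. Cells had been transfected with a control siRNA, an siRNA against Snai1 or an siRNA against ncRNA-a7, with 2 arrays in each of the 3 groups and 6 arrays in all. Snai1 is a transcriptional repressor known for its part in epithelial to mesenchymal transition, and ncRNA-a7 is a long noncoding RNA, annotated as TRERNA1, known to be transcribed near it. The comparisons address which genes respond to loss of either RNA. All cells were of 1 line and were transfected with an siRNA, the controls included, and the siRNA sequences, doses and times are not given in the sources used here. No source states that replicates were grown separately, and p-values cover just the variation among these arrays, which could be technical.

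Amino acids cross the membrane through several families of carrier. SLC1A5 (ASCT2) and SLC1A4 (ASCT1) are sodium-dependent exchangers of small neutral amino acids such as serine and alanine, and SLC1A5 also carries glutamine. SLC38A1 (SNAT1) and SLC38A2 (SNAT2) take up glutamine and other small neutral amino acids together with sodium, and SLC6A9 (GLYT1) takes up glycine. SLC7A1 (CAT-1) carries the cationic amino acids arginine and lysine. SLC7A5 (LAT1) and SLC7A11 (xCT) are light chains that reach the membrane bound to SLC3A2 (CD98 or 4F2hc), their shared heavy chain; SLC7A5 exchanges large neutral amino acids such as leucine, and SLC7A11 takes up cystine in exchange for glutamate. SLC43A1 (LAT3) carries large neutral amino acids without sodium and without the heavy chain. Many of these genes are known to be transcribed more when amino acids are scarce, through the transcription factor ATF4, which binds C/EBP-ATF response elements as a dimer with a C/EBP protein. SLC7A11 is also known as a target of NRF2, a factor that is constitutively active in A549 because of a KEAP1 mutation.

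The promoters were searched because these elements are known to lie close to the start sites of such genes. RefSeq windows on GRCh38.p14, from 250 bases before to 50 bases after each start, were at hand for 9 of the 10 genes, all but SLC7A11, as 16 windows of 300 bases, since several genes have more than 1 start. The letters TGATGNAA, the core of a C/EBP-ATF response element, were looked for on both strands and occurred in 5 of the 16 windows (31.2%), against 3.62% of all 35116 windows of that length. They occurred in 1 of 49 windows of other amino acid transporters (2.04%) and in 5 of 38 windows of other genes of the amino acid response (13.2%). The windows of SLC7A5, SLC38A2, SLC6A9 and SLC43A1 held no match. Many of the listed genes are known to respond through ATF4, and they were chosen with earlier results of these data known. These shares therefore describe the list and are not a test. The 5 matches are shown because they fell in 5 different genes, each in lower case with the match in capitals and 35 bases on either side, or fewer where the window ended.
SLC1A5: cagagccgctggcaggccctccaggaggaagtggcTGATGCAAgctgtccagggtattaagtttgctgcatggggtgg
SLC1A4: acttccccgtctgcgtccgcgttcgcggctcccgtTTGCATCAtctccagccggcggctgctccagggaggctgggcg
SLC38A1: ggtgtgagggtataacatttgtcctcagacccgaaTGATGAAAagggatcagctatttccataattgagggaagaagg
SLC7A1: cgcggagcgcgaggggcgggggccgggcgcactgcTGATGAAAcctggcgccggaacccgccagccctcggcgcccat
SLC3A2: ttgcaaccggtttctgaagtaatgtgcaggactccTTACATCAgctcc

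All 5 are written 5′ to 3′ in the direction of the gene. Each gene had its match in the window of 1 start only, and which start gave the RNA measured was not tested. The SLC1A5 stretch is chr19:46784869-46784946 on the minus strand, with the match at positions -97 to -90 counted from that start site. The window of another SLC1A5 start, which holds chr19:46787361-46787439, had no match of TGATGNAA. The SLC1A4 stretch is chr2:64989357-64989434 on the plus strand, and its match, on the opposite strand, spans the start site from -7 to 1. The SLC38A1 stretch, chr12:46266478-46266555 on the minus strand, also has its match across the start, from -4 to 4. In SLC7A1, at chr13:29595639-29595716 on the minus strand, the match lies at 8 to 15 within the transcribed part. The SLC3A2 stretch, chr11:62881701-62881748 on the plus strand, carries the match on the opposite strand at 38 to 45. The window of another SLC3A2 start, which holds chr11:62856009-62856084, had no match of TGATGNAA. The core of the antioxidant response element bound by NRF2, TGACNNNGC, occurred in 4 of the 16 windows (25%) against 13.3% of all windows, and CAGGTG, the E-box that Snai1 is known to bind, in 2 of 16 (12.5%) against 20.6%. No match overlapped a match of another motif. A match describes these letters and is neither a site nor a cause, and its absence in the other windows says nothing of a factor.

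Arrays had a mean deposited signal of 715 to 914 and a median of 147 to 154, with correlations across probes of 0.991 to 0.993 within groups and 0.987 to 0.989 between them. Background was not measured in the tables used here, so dim signals cannot be set against it. Both targets were too dim to check the labels. The SNAI1 probe read 142.7 and 144.2 in the controls, 127.5 and 127.3 with Snai1 siRNA and 138.8 and 146.5 with ncRNA-a7 siRNA, while the TRERNA1 probe read 117.9 and 117.8 in the controls, 142.7 and 128.6 with Snai1 siRNA and 129.7 and 132.5 with ncRNA-a7 siRNA. The TRERNA1 value in the arrays labelled ncRNA-a7 siRNA was above the controls, as it was with Snai1 siRNA, so no loss of this target was seen. At the 3.95th to 39.5th percentile, below the filter, this probe cannot decide for or against the label. The groups are called by their labels, and every direction given for ncRNA-a7 siRNA rests on the label. All 5 epithelial markers were in the brighter part of the array, with KRT8 at the 98.9th to 99.5th percentile, CDH1 at the 94.5th to 97.0th and EPCAM at the 81.8th to 92.3rd. KRT19 lay at the 70.6th to 73.8th and KRT18 at the 65.3rd to 72.2nd. Those 2 overlapped the leukocyte marker CD14 (70.2nd to 80.0th) and lay below the fibroblast marker LUM (76.5th to 80.8th). The epithelial markers did not move one way: CDH1 rose (log2 fold change 0.78 with Snai1 siRNA and 0.72 with ncRNA-a7 siRNA, limma adjusted p = 0.0014 and 0.00194), EPCAM fell (-1.12 and -1.64, adjusted p = 0.0012 and 0.000103), and with ncRNA-a7 siRNA KRT8 rose (0.49, adjusted p = 0.0402) and KRT18 fell (-0.42, adjusted p = 0.0448). PTPRC and CD3E of the 4 leukocyte markers on the array, CDH5 and VWF of 5 endothelial markers, and COL1A2 and COL3A1 of 5 fibroblast markers lay in the dim part. The other 8 markers of these cell types passed the filter, CD14 and ITGAM, PECAM1, KDR and ESAM, and COL1A1, DCN and LUM, and CD14 (1.15 and 1.01, adjusted p = 0.000266 and 0.000439) and ESAM (1.48 and 0.66, adjusted p = 6.67e-05 and 0.00637) rose with both siRNAs. ITGAM rose with ncRNA-a7 siRNA (0.80, adjusted p = 0.00126), and COL1A1 and LUM with Snai1 siRNA (0.53 and 0.53, adjusted p = 0.0193 and 0.0158). Of these marker calls, those of KRT8, KRT18, COL1A1 and LUM were lost under 8, 13, 5 and 6 alternatives and that of ESAM with ncRNA-a7 siRNA under 2. The summed signal of the 5 epithelial markers was 17772 to 20925 in the controls, 21050.0 to 26223 with Snai1 siRNA and 23197 to 25547 with ncRNA-a7 siRNA. The leukocyte markers summed to 657 to 667, 810 to 1000 and 917 to 949 in the same order, the endothelial markers to 790.2 to 804, 887 to 1036 and 813 to 908, and the fibroblast markers to 871 to 977, 990.0 to 1144 and 970.2 to 981. Both arrays of either siRNA group lay above both controls in these sums, except that the fibroblast sum with ncRNA-a7 siRNA overlapped the controls. The sums are of deposited signals, whose mean also differed between arrays (715 to 914). KRT8 alone read 12754.5 to 19792.7 of the epithelial sum. The part of these sums in the results below was not tested. In RNA from whole cultures, fewer cells that express a transporter and less of its RNA per cell cannot be told apart.

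Against control, SLC1A5, SLC1A4, SLC38A1, SLC38A2 and SLC6A9 fell with both siRNAs, and SLC7A1 fell with ncRNA-a7 siRNA. A gene was tested if its brightest probe lay in the brighter part of all probes by mean log2 signal, and a call needed a limma p under 0.05 after Benjamini-Hochberg adjustment over 19730 features. Of the 10 genes 9 passed this filter. These genes and the lists further below were chosen with earlier results of these data known. The shares of them called are therefore descriptions and not a test of a set. With Snai1 siRNA 5 of the 9 were called lower than control (55.6%) and 0 higher, where 4.28% of all features were called lower and 4.88% higher. With ncRNA-a7 siRNA 6 of the 9 were called lower (66.7%) and 0 higher, where 4.16% of all features were called lower and 5.78% higher. The count of 5 with Snai1 siRNA became 2 without control replicate 1, control replicate 2 or Snai1 siRNA replicate 2, and 3 without Snai1 siRNA replicate 1, and the count of 6 with ncRNA-a7 siRNA became 2 without control replicate 1 and 4 without control replicate 2 or either ncRNA-a7 siRNA array. With the replicate number as a block the first count was 3. SLC1A4 passed the filter through the controls, its Snai1 siRNA mean lying below it, and without SLC1A4, a count made after its values were seen, 4 of 8 (50%) and 5 of 8 (62.5%) were called lower, with median log2 fold changes of -0.39 and -0.64. Both arrays lay below both control arrays for 7 of the 9 with Snai1 siRNA (27.7% of all features) and for 9 of the 9 with ncRNA-a7 siRNA (27.1% of all features). The median log2 fold change over the 9 was -0.42 with Snai1 siRNA and -0.53 with ncRNA-a7 siRNA, against -0.01 over all features in both. The 2 comparisons share the same control arrays, so their values are given side by side and are not independent. The values of each gene by array are given as normalised signals on a linear scale, after background correction and quantile normalisation, and are compared within a probe only.

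**Figure D1:**
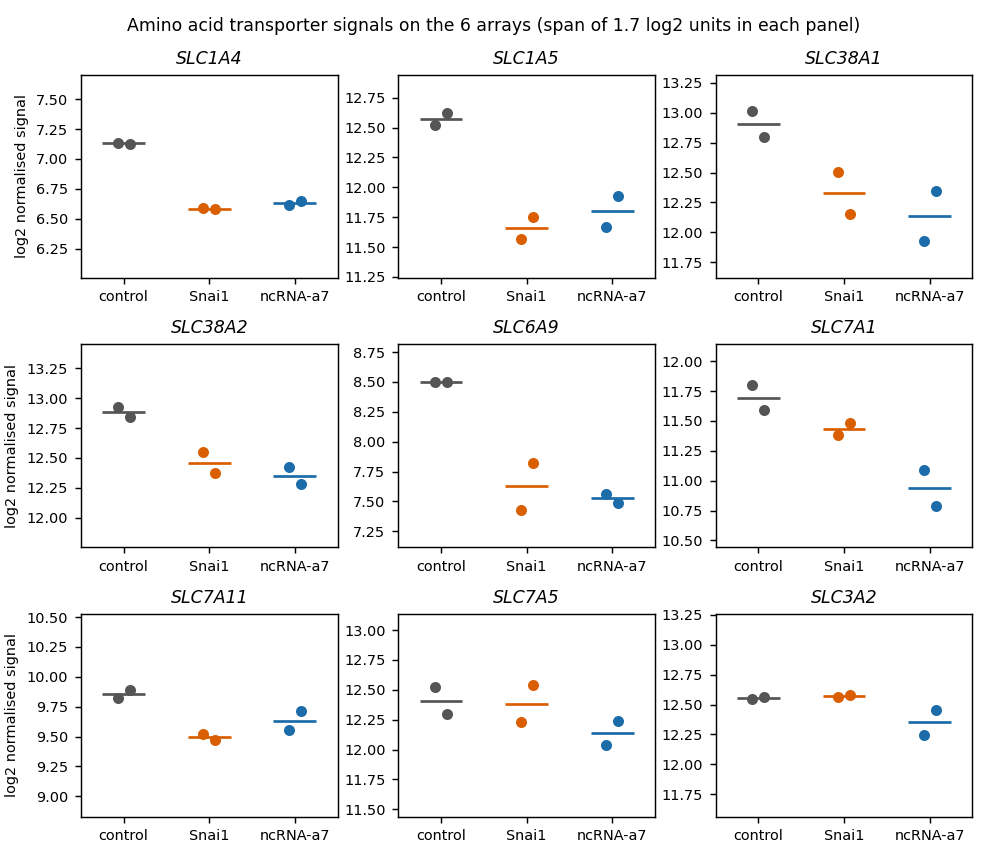
Normalised signal of the brightest probe of each of the 9 tested transporters, on a log2 axis, with 1 point an array and a bar at the mean of the 2 arrays of a group. Each panel spans the same log2 range, so distances can be compared between panels. The control arrays of SLC1A5, SLC1A4, SLC38A1, SLC38A2, SLC6A9, SLC7A1 and SLC7A11 sit above all 4 arrays of the other groups, although SLC7A11 was not called.

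SLC1A5, the exchanger known as a main route of glutamine entry in many cancer cells, read 5894 and 6286 in the controls, 3039 and 3443 with Snai1 siRNA and 3247 and 3904 with ncRNA-a7 siRNA. Every array of the Snai1 and ncRNA-a7 siRNA groups was below both controls, and those groups overlapped each other. It fell 1.88-fold with Snai1 siRNA (log2 fold change -0.91 ± 0.13 SE with n = 2 per group, limma adjusted p = 0.00136) and 1.71-fold with ncRNA-a7 siRNA (-0.77 ± 0.13, limma adjusted p = 0.0033). Both calls held when any 1 of the 6 arrays was left out, with log2 fold changes from -0.997 to -0.83 with Snai1 siRNA and from -0.91 to -0.64 with ncRNA-a7 siRNA.

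SLC6A9, the glycine transporter, showed the largest difference between group means among the 9 genes. Its brightest probe read 361 and 362 in the controls, 173 and 226 with Snai1 siRNA and 189.1 and 179.7 with ncRNA-a7 siRNA. The controls differed little from each other, and the other 4 arrays lay below them. It fell 1.83-fold with Snai1 siRNA (log2 fold change -0.87 ± 0.14 SE, limma adjusted p = 0.00245) and 1.96-fold with ncRNA-a7 siRNA (-0.97 ± 0.14, limma adjusted p = 0.00109), and both calls held without any 1 array. The other 2 SLC6A9 probes lay in the dim part of the array, with deposited signals of 129.6 to 161 and 124 to 140, and did not show this difference: their log2 fold changes over all probes were 0.01 and 0.13 with Snai1 siRNA and -0.22 and -0.02 with ncRNA-a7 siRNA. The SLC6A9 result therefore rests on 1 of 3 probes.

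SLC1A4, the serine and alanine exchanger related to SLC1A5, was dim and passed the filter narrowly. It read 140.4 and 139.9 in the controls, 96.1 and 95.6 with Snai1 siRNA and 98.1 and 100.5 with ncRNA-a7 siRNA, where the filter stood at 96.5, so that both Snai1 siRNA arrays were below it. No background was measured, and its fold values are those of the corrected signal alone. Replicates lay close together and the other 4 arrays were all below the controls. It fell 1.46-fold with Snai1 siRNA (log2 fold change -0.55 ± 0.11 SE, limma adjusted p = 0.00926) and 1.41-fold with ncRNA-a7 siRNA (-0.50 ± 0.11, limma adjusted p = 0.0153). Its calls were thin in arrays: with Snai1 siRNA the limma adjusted p was 0.0505 and 0.0650 without Snai1 siRNA replicate 1 and 2, and 0.0836 and 0.0701 without control replicate 1 and 2. With ncRNA-a7 siRNA it was 0.107 and 0.100 without control replicate 1 and 2, and 0.0657 and 0.0516 without ncRNA-a7 siRNA replicate 1 and 2. On the authors' scaled values without background correction the log2 fold changes were -0.30 and -0.30 and neither was called (adjusted p = 0.213 and 0.190). Under median scaling they were -0.56 and -0.51 (adjusted p = 0.0553 and 0.101), and with no filter the ncRNA-a7 siRNA call was lost as well (0.0744).

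SLC38A1, a sodium-coupled glutamine importer, read 8284 and 7106 in the controls, 5808 and 4548 with Snai1 siRNA and 3887 and 5199 with ncRNA-a7 siRNA. Replicates of SLC38A1 were wider apart than those of SLC1A5, yet none of the other 4 arrays reached a control. It fell 1.49-fold with Snai1 siRNA (log2 fold change -0.58 ± 0.16 SE, limma adjusted p = 0.0477) and 1.71-fold with ncRNA-a7 siRNA (-0.77 ± 0.16, limma adjusted p = 0.0122). The Snai1 siRNA call was lost without Snai1 siRNA replicate 2, control replicate 1 or control replicate 2 (adjusted p = 0.317, 0.317 and 0.0986) and with a replicate block, an offset of 16 or no filter (0.0596, 0.136 and 0.136). The ncRNA-a7 siRNA call was lost without control replicate 1 or ncRNA-a7 siRNA replicate 1 (adjusted p = 0.143 and 0.100) and with an offset of 16 (0.0629). A second SLC38A1 probe read 417 and 337 in the controls, 282 and 232 with Snai1 siRNA and 194 and 207 with ncRNA-a7 siRNA, again with no overlap. In the fit over all probes its log2 fold change was -0.55 ± 0.16 with Snai1 siRNA (limma adjusted p = 0.108) and -0.90 ± 0.16 with ncRNA-a7 siRNA (limma adjusted p = 0.00939).

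SLC38A2, the system A transporter known to be induced by amino acid starvation, read 7777 and 7333 in the controls, 5986 and 5306 with Snai1 siRNA and 5483 and 4977 with ncRNA-a7 siRNA. All 4 other arrays were below both controls. It fell 1.34-fold with Snai1 siRNA (log2 fold change -0.42 ± 0.12 SE, limma adjusted p = 0.0493) and 1.45-fold with ncRNA-a7 siRNA (-0.53 ± 0.12, limma adjusted p = 0.017). The first of these calls was near its threshold, and leaving out Snai1 siRNA replicate 1 or 2 or control replicate 1 or 2 gave adjusted p = 0.0739, 0.292, 0.274 and 0.138. It was also lost with a replicate block (0.0503), an offset of 16 (0.112), median scaling (0.0600) or no filter (0.173). With ncRNA-a7 siRNA the call was lost without control replicate 1 or 2 or ncRNA-a7 siRNA replicate 2 (adjusted p = 0.148, 0.0774 and 0.0887), and with an offset of 16 (0.0591) or no filter (0.0730).

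SLC7A1, the arginine and lysine carrier, was the gene of the set called between the siRNAs. It read 3565 and 3089 in the controls, 2662 and 2862 with Snai1 siRNA and 2179 and 1768 with ncRNA-a7 siRNA. The 3 groups did not overlap, with the Snai1 siRNA arrays between the others. It fell 1.69-fold with ncRNA-a7 siRNA (log2 fold change -0.76 ± 0.14 SE, limma adjusted p = 0.00482), a call lost without control replicate 1 (adjusted p = 0.0799). With Snai1 siRNA its log2 fold change was -0.27 with a 95% interval from -0.56 to 0.03, and it was not called (limma adjusted p = 0.269).

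The heavy chain SLC3A2 and its light chains were not called in either comparison with control. The brightest SLC3A2 probe read 5968 and 6057 in the controls, 6065 and 6117 with Snai1 siRNA and 4848 and 5627.5 with ncRNA-a7 siRNA. Its log2 fold change was 0.02 with Snai1 siRNA (95% interval -0.24 to 0.28, limma adjusted p = 0.949) and -0.20 with ncRNA-a7 siRNA (-0.46 to 0.06, limma adjusted p = 0.332). Its Snai1 siRNA value turned negative, to -0.09, under median scaling. A second SLC3A2 probe disagreed in direction with Snai1 siRNA, while both probes were lower than control with ncRNA-a7 siRNA. The second probe read 554 and 662 in the controls, 433 and 480.0 with Snai1 siRNA and 416 and 531 with ncRNA-a7 siRNA. Every Snai1 and ncRNA-a7 siRNA array was below both controls. Its log2 fold changes were -0.41 ± 0.16 with Snai1 siRNA and -0.37 ± 0.16 with ncRNA-a7 siRNA. Neither was called over all probes (limma adjusted p = 0.278 and 0.332).

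SLC7A5, the leucine-exchanging light chain, read 5886 and 5025.5 in the controls, 4794 and 5958 with Snai1 siRNA and 4197 and 4827 with ncRNA-a7 siRNA. The Snai1 siRNA arrays spanned the controls, with a log2 fold change of -0.03 (95% interval -0.34 to 0.28, limma adjusted p = 0.942). Both ncRNA-a7 siRNA arrays were below the controls, with a log2 fold change of -0.27 (-0.58 to 0.04, limma adjusted p = 0.268). SLC7A11, the cystine-importing light chain, read 906 and 946 in the controls, 733 and 710.1 with Snai1 siRNA and 751 and 838 with ncRNA-a7 siRNA. None of the other 4 arrays reached a control, but the difference was not called: the log2 fold change was -0.36 with Snai1 siRNA (-0.61 to -0.11, limma adjusted p = 0.0782) and -0.22 with ncRNA-a7 siRNA (-0.48 to 0.03, limma adjusted p = 0.268). The Snai1 siRNA difference of SLC7A11 was called under 3 alternatives, no background correction (adjusted p = 0.0314), probes above the 75th percentile (0.0205) and a trended prior (0.0310), and over all 18 alternatives its adjusted p ran from 0.0205 to 1. The intervals of SLC3A2, SLC7A5 and SLC7A11 do not show that their levels stayed the same.

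**Figure D2:**
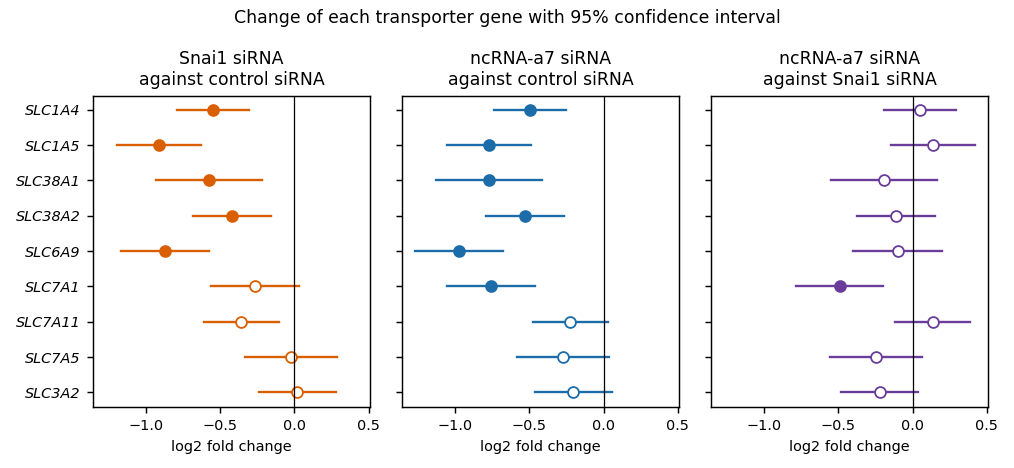
Log2 fold change of each tested transporter in the 3 comparisons, with 95% intervals from limma, filled where the Benjamini-Hochberg adjusted p was under 0.05. Fold changes against control range from -0.91 to 0.02 with Snai1 siRNA and from -0.97 to -0.20 with ncRNA-a7 siRNA, and between the siRNAs only SLC7A1 is filled.

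SLC43A1, the sodium-independent carrier of large neutral amino acids, did not pass the filter. Its probe had deposited signals of 158 and 169.6 in the controls, 178 and 115 with Snai1 siRNA and 151 and 125 with ncRNA-a7 siRNA, and the Snai1 siRNA arrays lay on either side of the controls. Its mean log2 signal of 6.56 was just under the filter at 6.59, and SLC1A4 was the tested gene of the set nearest above it. In the fit over all probes its log2 fold change was -0.31 with Snai1 siRNA (95% interval -0.83 to 0.21, limma adjusted p = 0.654) and -0.36 with ncRNA-a7 siRNA (-0.88 to 0.16, limma adjusted p = 0.570).

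The direct comparison of the siRNAs, which does not use the controls for its difference, called 1 of the 9 genes lower with ncRNA-a7 siRNA (11.1%) and 0 higher, where 3.38% of all features were called lower and 4.74% higher. SLC7A1 was that gene, its signal being 1.41-fold lower after ncRNA-a7 siRNA than after Snai1 siRNA (log2 fold change -0.49 ± 0.14 SE, limma adjusted p = 0.045). This call was lost without Snai1 siRNA replicate 1 or 2 (adjusted p = 0.0969 and 0.235), control replicate 1 or 2 (0.0727 and 0.0626) or ncRNA-a7 siRNA replicate 2 (0.208), and it remained only without ncRNA-a7 siRNA replicate 1. For the other 8 genes the difference between the siRNAs was not called, and their 95% intervals were -0.15 to 0.42 for SLC1A5, -0.19 to 0.29 for SLC1A4, -0.55 to 0.16 for SLC38A1 and -0.37 to 0.15 for SLC38A2. They were -0.40 to 0.20 for SLC6A9, -0.56 to 0.06 for SLC7A5, -0.48 to 0.04 for SLC3A2 and -0.12 to 0.39 for SLC7A11. These intervals allow differences of either sign for each of the 8.

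**Figure D3:**
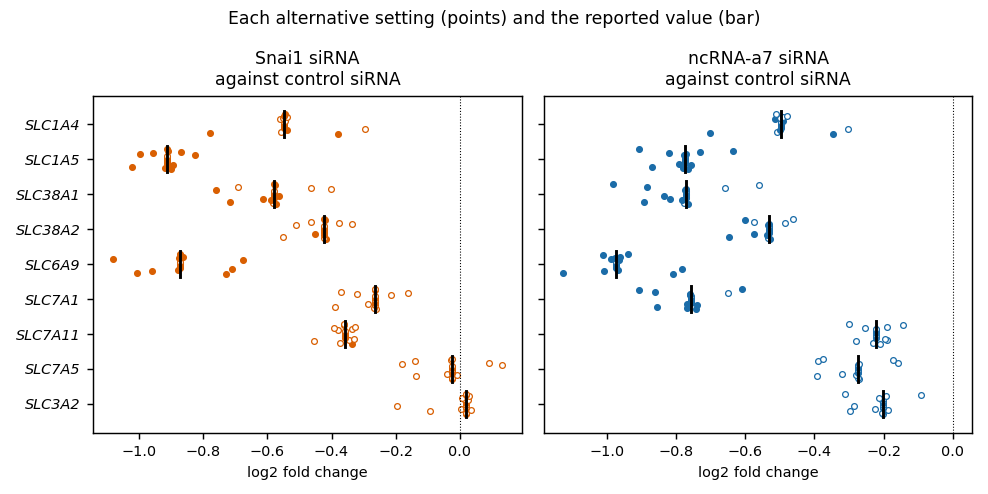
Log2 fold change of each tested transporter against control under every alternative of processing, 1 point an alternative, filled where called, with a bar at the reported value. SLC1A5 stays below 0 under all 18 alternatives and SLC6A9 under the 17 in which it passed the filter. Both are called except at a minimum change of 1.5-fold, while points of SLC7A5 and SLC3A2 with Snai1 siRNA lie on both sides of 0. The trended prior, the fit per pair of groups, the replicate block and the 1.5-fold test cannot move a log2 fold change. For SLC1A5 and SLC6A9, averaging the probes that passed the filter or dropping the filter used the same probe again.

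Among other amino acid transporters calls went both ways. Of 42 listed, 41 were on the array and 27 passed the filter. With Snai1 siRNA 4 rose and 4 fell, with a median log2 fold change of -0.05, and with ncRNA-a7 siRNA 2 rose and 3 fell, with a median of 0.02. Of the 27, 14.8% were called lower with Snai1 siRNA and 11.1% with ncRNA-a7 siRNA, against 4.28% and 4.16% of all features. Of all features 4.88% and 5.78% were called higher. SLC1A1, a glutamate and cysteine transporter, rose with Snai1 siRNA (log2 fold change 0.76, limma adjusted p = 0.00206), and CTNS, the lysosomal cystine exporter, fell (-0.88, adjusted p = 0.00169). SLC38A9 fell with Snai1 siRNA as well (-0.68, adjusted p = 0.00508), a call lost under 2 of 17 alternatives. SLC3A1, the heavy chain of a cystine transporter and relative of SLC3A2, rose with ncRNA-a7 siRNA (0.79, adjusted p = 0.00122). SLC3A1 also rose with Snai1 siRNA (0.61, adjusted p = 0.0061), a call lost under 3 of 17 alternatives. The counts were small and moved with single arrays, from 1 higher and 1 lower without control replicate 1 to 6 higher and 3 lower without ncRNA-a7 siRNA replicate 1 in the first comparison, and to 1 higher and 0 lower without control replicate 1 in the second. Between the siRNAs 2 were higher and 4 lower with ncRNA-a7 siRNA, among them CTNS (0.95, adjusted p = 0.00162), the cationic amino acid transporter SLC7A2 (-0.85, adjusted p = 0.00201) and SLC1A1 (-0.73, adjusted p = 0.00381). The share lower was 14.8%, where 3.38% of all features were called lower and 4.74% higher.

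**Figure D4:**
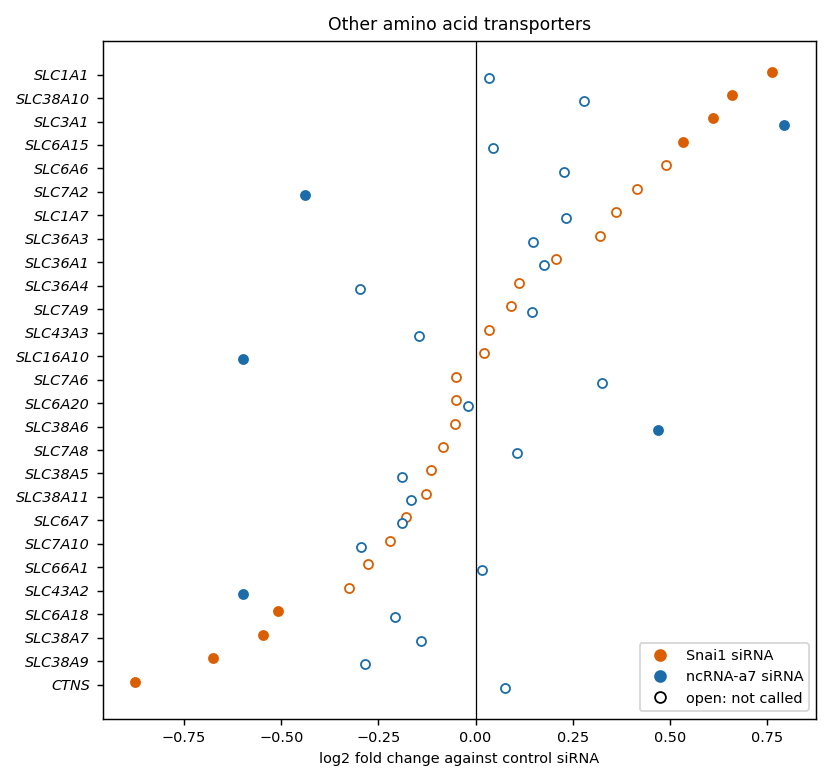
Log2 fold change against control of the 27 other amino acid transporters that passed the filter, orange with Snai1 siRNA and blue with ncRNA-a7 siRNA, filled where called. Points lie on both sides of 0, with medians of -0.05 and 0.02.

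The list for the amino acid response held ATF4, factors upstream of it such as EIF2S1, and genes of its program, to which several of these transporters belong. Many of its genes were called lower with either siRNA, and none was called higher. All 28 listed genes were tested, and 15 fell and 0 rose with Snai1 siRNA (median log2 fold change -0.51), and 16 fell and 0 rose with ncRNA-a7 siRNA (median -0.50). The shares called lower were 53.6% and 57.1%, against 4.28% and 4.16% of all features, and 24 of the 28 had a fold change below 1 in each comparison. With an offset of 16 or with no filter 12 of the 28 fell in each comparison. At a minimum change of 1.5-fold 1 fell with Snai1 siRNA and 5 with ncRNA-a7 siRNA. With Snai1 siRNA the smallest p-values were those of STC2, a secreted glycoprotein (-1.87, limma adjusted p = 9.48e-06), EIF2S1, the alpha subunit of the initiation factor eIF2 (-0.99, adjusted p = 0.00035), and CBS, an enzyme of cysteine synthesis (-1.07, adjusted p = 0.000516). With ncRNA-a7 siRNA they were those of STC2 (-2.63, adjusted p = 2.82e-07), the serine synthesis enzyme PSAT1 (-1.54, adjusted p = 3.53e-05) and the folate enzyme MTHFD2 (-1.24, adjusted p = 8.17e-05). Named after its values were seen, ASNS, asparagine synthetase, fell with both siRNAs (-0.96 and -1.27, adjusted p = 0.000777 and 0.000109). ATF4 itself, also named after its values were seen, fell with ncRNA-a7 siRNA (-0.67, adjusted p = 0.00573), a call lost without control replicate 1 or 2. With Snai1 siRNA ATF4 was not called (-0.25, adjusted p = 0.244). Without control replicate 1 the counts of falls were 8 and 10, and without control replicate 2 the second was 10 too. Between the siRNAs EIF2S1 was higher with ncRNA-a7 siRNA (0.96, adjusted p = 0.000638), and 3 genes were lower, among them STC2 (-0.76, adjusted p = 0.00321) and MTHFD2 (-0.72, adjusted p = 0.00356). The share lower was 10.7%, where 3.38% of all features were called lower and 4.74% higher.

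In 3 further lists, for glutathione, mTORC1 sensing and NRF2 targets, calls went both ways. Of 15 genes of glutathione synthesis and use, which depends on cystine and glycine, 14 were tested, and 1 rose and 1 fell with either siRNA. CHAC1, which degrades glutathione and is also in the amino acid response list, fell with both (-0.91 and -0.96, limma adjusted p = 0.00139 and 0.000895). GPX1 rose with Snai1 siRNA (0.48, adjusted p = 0.0303) and GLRX with ncRNA-a7 siRNA (0.44, adjusted p = 0.0397). Those calls were lost under 7 and 11 of 17 alternatives. Over these 17 the glutathione list had 0 to 1 higher and 0 to 1 lower with Snai1 siRNA. With ncRNA-a7 siRNA it had 0 to 2 higher and 1 to 2 lower. Of 38 genes of amino acid sensing by mTORC1, 35 were tested, and 3 rose and 4 fell with Snai1 siRNA and 2 rose and 2 fell with ncRNA-a7 siRNA. RRAGD, a Rag GTPase, rose with both (0.88 and 0.90, adjusted p = 0.00104 and 0.000744), and the translation repressors EIF4EBP2 and EIF4EBP1 fell with ncRNA-a7 siRNA (-1.33 and -0.90, adjusted p = 5.51e-05 and 0.0011). EIF4EBP1 also fell with Snai1 siRNA (-0.52, adjusted p = 0.0234), a call lost under 5 of 17 alternatives. Of 25 NRF2 target genes 21 were tested, and 3 rose and 2 fell with Snai1 siRNA and 4 rose and 2 fell with ncRNA-a7 siRNA. ALDH3A1, an aldehyde dehydrogenase, rose with both (0.83 and 0.99, adjusted p = 0.00157 and 0.000457), and SRXN1, sulfiredoxin, fell with Snai1 siRNA (-1.03, adjusted p = 0.000495). SRXN1 also fell with ncRNA-a7 siRNA (-0.62, adjusted p = 0.00876), a call lost under 3 of 17 alternatives. ABCC3 had the smallest p of the NRF2 list with ncRNA-a7 siRNA, where it rose (1.37, adjusted p = 5.77e-05). It also rose with Snai1 siRNA (0.75, adjusted p = 0.00255), a call lost under 1 of 17 alternatives. The shares called lower with Snai1 siRNA were 7.14% for glutathione, 11.4% for mTORC1 sensing and 9.52% for NRF2 targets, and with ncRNA-a7 siRNA 7.14%, 5.71% and 9.52%, against 4.28% and 4.16% of all features. Of all features 4.88% and 5.78% were called higher. These counts were small: over 17 alternatives, all but the minimum change of 1.5-fold, the mTORC1 list had 1 to 4 higher and 1 to 5 lower with Snai1 siRNA and 1 to 3 higher and 2 to 4 lower with ncRNA-a7 siRNA, and the NRF2 list had 1 to 3 higher and 1 to 3 lower, and 3 to 6 higher and 1 to 3 lower. At the 1.5-fold minimum 0 genes of either list were called with Snai1 siRNA and 1 gene of each with ncRNA-a7 siRNA.

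SLC6A9, the transporter with the largest range of group means, was set against the other 13056 named genes by the root mean square difference of centred log2 signals over the 6 arrays. The smallest differences were those of TMEM79 (0.0783), DDIT3 (0.103), RPL28 (0.114), DIO2 (0.129) and ATF3 (0.133). The transcription factors DDIT3 and ATF3 are in the amino acid response list. The 6 arrays share their groups and normalisation, so this likeness is a description of the profile. TMEM79 had group means of 9.59 in the controls, 8.74 with Snai1 siRNA and 8.54 with ncRNA-a7 siRNA on the log2 scale, and those of SLC6A9 were 8.50, 7.63 and 7.53.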

How the data were processed

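A549 RNA was hybridised to single-colour Illumina HumanHT-12 V3 arrays as biotin-labelled total RNA, per the labels. The deposited table holds 1 linear signal intensity per probe and array, not normalised, and no detection p-values. The authors' second deposited table holds the same intensity multiplied by 1 constant per array, as a comparison of both tables showed. The software behind both is not given in these sources. Columns were named by sample, and the labels gave group and replicate number.

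Background was corrected by normexp (offset 50) in limma 3.58.1 under R 4.3.3, and values were quantile normalised and put on the log2 scale, so fold changes are on a log2(value + offset) scale and understate changes of dim genes. Probes whose mean log2 exceeded the median over probes were kept, 24350 of 48701, and a gene was its probe with the highest mean. All 6 arrays entered 1 fit (lmFit and eBayes, 3 residual and 8.90 prior degrees of freedom) with Benjamini-Hochberg adjustment over 19730 features. The median standard error of the log2 fold changes was 0.13, and 2 arrays per group limit the precision. Other probes of a gene were fitted over all probes without a filter. Symbols came from the platform annotation, which can be old and gave 28044 probes 1 symbol, 13 several and 20644 none.

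The members and lists were chosen with earlier results of these data known. Genes named besides them came from the up to 3 called genes per list and comparison with the smallest p, not all of which are named. Some of them are also given for a comparison in which other genes had smaller p. The 5 genes most like SLC6A9 were named too, and exceptions are stated in the text. Replicate numbers were not used to pair the samples in the main fit. The deviations of same-numbered arrays correlated at -0.07 to 0.01 after quantile normalisation. With 1 difference per group, this cannot show whether same-numbered arrays were handled together. Alternatives for the signals were to omit background correction, to use an offset of 16, to scale by medians or by cyclic loess, and to start from the authors' scaled values. Those for features were to drop the filter, to keep probes above the 75th percentile, and to average the probes of a gene that passed the filter. Those for the fit were a trended robust prior, a fit per pair of groups, a block for the replicate number, a test against 1.5-fold, and each array left out in turn, with the remaining array of that group taken to vary as the others do. The fit was tested on simulated data.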

Additional observations from a re-analysis of the deposited data

How the results depend on the processing

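Of the 5 transporters called lower with Snai1 siRNA, 3 were called with an offset of 16, with median scaling, with no filter and with a replicate block, 0 at a minimum change of 1.5-fold, and 2 to 5 with 1 array left out. Of the 6 called lower with ncRNA-a7 siRNA, 4 were called with an offset of 16 or no filter, 5 with median scaling or the authors' values, 6 with the replicate block, 0 at a minimum change of 1.5-fold and 2 to 6 with 1 array left out. The 1 called between the siRNAs became 0 with an offset of 16, median scaling, no filter, the mean of a gene's probes, groups compared alone or a minimum change of 1.5-fold, and 0 to 1 with 1 array left out. SLC1A5 and SLC6A9 were called lower against control under every alternative other than the 1.5-fold minimum, but SLC6A9 did not pass the filter at the 75th percentile. The other 2 SLC6A9 probes failed the filter, so averaging did not draw on them and no alternative took their values into account.

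Counts over all features moved too. With Snai1 siRNA the 1807 calls became 987 with an offset of 16, 1064 with median scaling (33.7% higher against 53.3%), 820 with no filter, 2718 with a trended prior, 50 at 1.5-fold and 457 to 1943 with 1 array left out. With ncRNA-a7 siRNA the 1962 became 1032, 920 (48.9% higher against 58.2%) and 822 under the first 3 of these, 70 at 1.5-fold and 552 to 1790 with 1 array left out. Between the siRNAs the 1601 became 2487 with no background correction, 569 with an offset of 16, 698 with median scaling (70.6% higher against 58.4%), 498 with no filter, 2498 above the 75th percentile, 2574 with a trended prior, 23 at 1.5-fold and 352 to 1154 with 1 array left out. The replicate block gave 1664, 1730 and 1433. The causes were not tested.

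None of the values that turned sign was called. With Snai1 siRNA SLC3A2 went from 0.02 to -0.092 with median scaling and -0.19 with the mean of its probes, and SLC7A5 ran from -0.18 to 0.13 with 1 array left out. Between the siRNAs SLC1A4 went to -0.0053 on the authors' values, and with 1 array left out SLC38A1 ran from -0.40 to 0.018 and SLC6A9 from -0.29 to 0.10. The cause was not tested. Dim probes, SLC1A4 and SLC43A1 above all, are limited by the missing background.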
